A study of Mus musculus with 12 samples.

Results

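Chemokine ligand genes were taken from whole-spleen arrays of a pair of BALB/c mouse colonies. A probe set was included when any of its annotated gene symbols began with Ccl, Cxcl, Cx3cl or Xcl and a number, and the platelet chemokines Pf4 and Ppbp were left out. The rule found 55 probe sets among the 45037 tested, and they represent 35 gene names. The annotation gives 1 gene for 51 of them and several genes for 4, which read Ccl19, the Ccl21 family or the Ccl27 family together with near-identical copies. By the usual division, 17 probe sets of 8 genes are homeostatic, 21 of 17 genes are inflammatory, and 17 of 10 genes belong to both classes or to neither.

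Chemokines are small secreted proteins that attract leukocytes through G protein-coupled receptors. Homeostatic chemokines are made constantly by stromal cells and keep lymphoid organs in order: CCL19 and CCL21 hold T cells and dendritic cells in the T zone of the splenic white pulp through CCR7, CXCL13 draws B cells into follicles through CXCR5, and CXCL12 retains plasma cells and precursors through CXCR4. Inflammatory chemokines are switched on by microbial products and cytokines and recruit neutrophils, monocytes and effector T cells.

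The study compared female BALB/cJ and BALB/cByJ mice, 2 colonies of the inbred BALB/c strain, before and after immunization against cartilage proteoglycan (PG) aggrecan, the antigen of an arthritis and spondylitis model. Each colony gave 3 naïve and 3 immunized animals. Naïve mice were left untreated, and immunized mice received 1 intraperitoneal injection of 100 μg of PG protein with 2 mg of the adjuvant dimethyldioctadecyl-ammonium bromide (DDA). Spleens of the immunized mice were taken on day 12 after that injection, and RNA of a piece of each of the 12 spleens was hybridized to 1 Mouse Genome 430 2.0 array. All mice carry the BALB/c background with no engineered allele, and the labels of the arrays give no age.

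A deposited value is a log2 signal minus the median of its probe set over the 12 arrays, so 0 marks the median array, and 1 unit is a 2-fold difference. The logarithm base was not written in the files and was taken from the summarization method. Levels of different genes cannot be compared, and whether a probe set was above background cannot be told. The presence of spleen markers could not be checked for the same reason. Differences are BALB/cByJ minus BALB/cJ or immunized minus naïve, and a probe set was called at an adjusted p under 0.05 from limma over all 45037 probe sets. In RNA of whole spleen, fewer cells of a type and less RNA per cell cannot be told apart.

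Several arrays stood apart from the rest of their groups. A list of erythroid genes had medians of -1.31 and -1.53 in replicates 1 and 2 of naïve BALB/cJ, of -1.03 in replicate 3 of immunized BALB/cJ, and between -0.26 and 0.65 in the other arrays. Pigment cell genes were high in naïve BALB/cJ replicates 1 and 2, immunized BALB/cJ replicate 1 and immunized BALB/cByJ replicate 2, the list medians being 1.79, 1.55, 1.26 and 0.63. Pancreatic genes were high in naïve BALB/cByJ replicate 1 (median 2.26). Heat shock genes had medians of 0.22 and 0.48 in immunized BALB/cJ replicates 2 and 3, 0.24 in immunized BALB/cByJ replicate 3, between 0.00 and 0.11 in the other immunized arrays and between -0.24 and -0.03 in naïve arrays. Those 3 arrays carry the sample numbers 48 to 50, the later run of the immunized arrays. The sample numbers of the naïve arrays form a run of their own, so that immunization and any effect of this run cannot be told apart. The runs of the immunized arrays were uneven over the colonies, with numbers 33, 49 and 50 in BALB/cJ and 29, 31 and 48 in BALB/cByJ. Colony and run are therefore partly mixed in immunized mice. The labels do not say whether the runs are batches.

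Among the 55 probe sets, the extremes were spread unevenly over the arrays. Immunized BALB/cJ replicate 1 had the highest value for 18 of the 55, and naïve BALB/cByJ replicates 1 and 3 the lowest for 19 and 14. Such counts were not made over all probe sets. The SD of all values was 0.26 and 0.22 in these naïve BALB/cByJ arrays and 0.19 in immunized BALB/cJ replicate 1. Over the 12 arrays it lay between 0.13 and 0.26. The median over the 55 was -0.19, -0.03 and -0.13 in the naïve BALB/cByJ replicates 1, 2 and 3, and between -0.03 and 0.10 in the other 9 arrays.

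**Figure D1:**
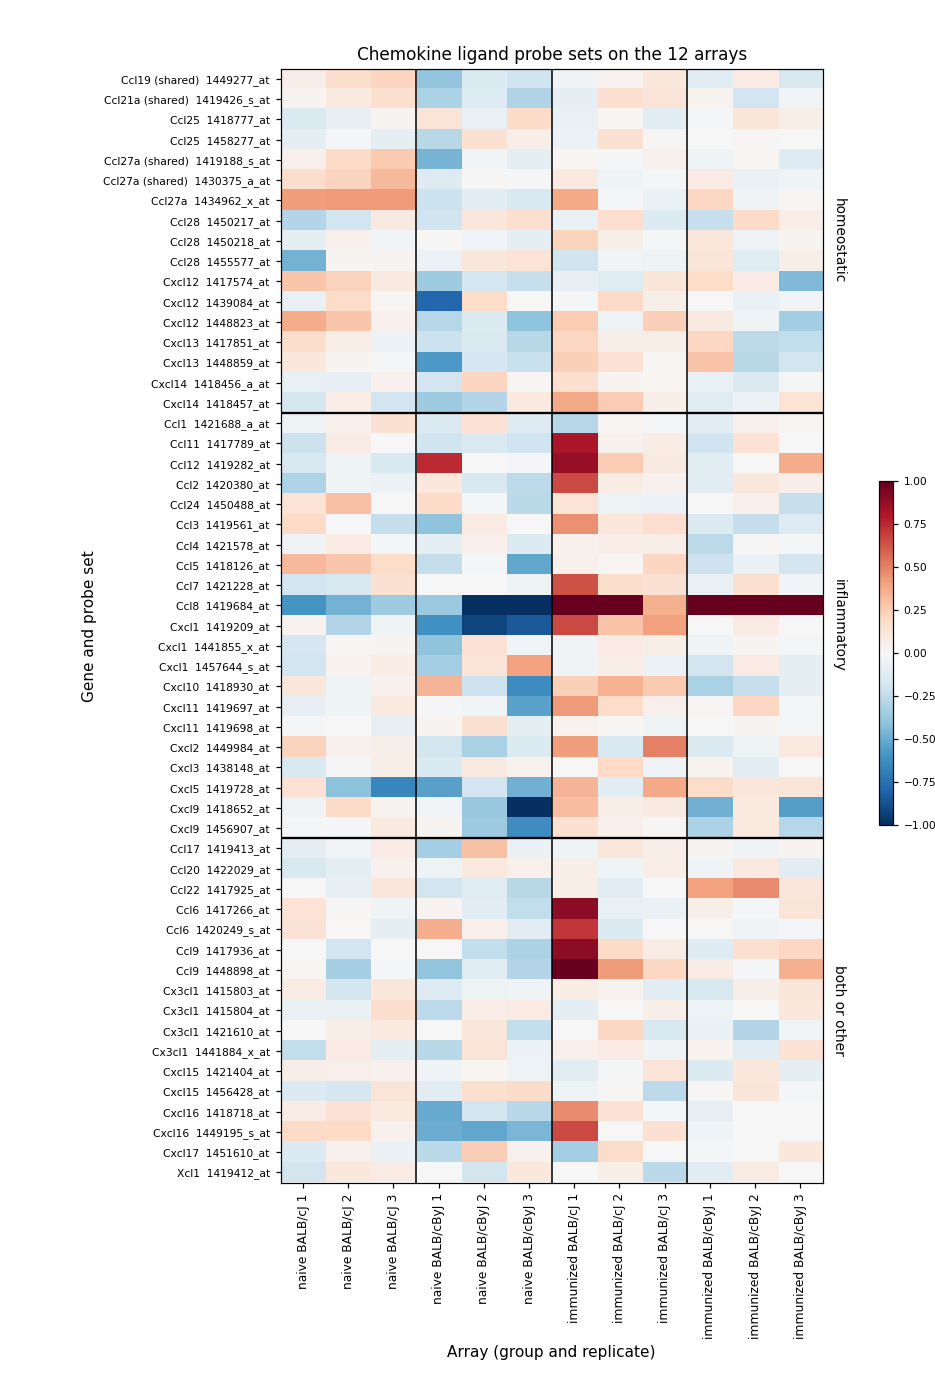
Values of the 55 chemokine ligand probe sets (vertical axis, grouped by class) on the 12 arrays (horizontal axis, grouped by colony and immunization), as the log2 difference from the median array, with colours ending at -1 and 1. The 3 naïve BALB/cByJ arrays are low for Cxcl1, Cxcl16 and many homeostatic ligands, Ccl8 is high in all 6 immunized arrays, and immunized BALB/cJ replicate 1 holds the highest values of several inflammatory ligands.

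Before immunization, ligands of both classes were called lower in spleens of BALB/cByJ mice, and none was called higher. Of the 55 probe sets, 5 were called, against 4.39% of all probe sets. All 5 were lower in BALB/cByJ, against 1.71% of all probe sets called in that direction. They read Cxcl1, a neutrophil attractant acting on CXCR2; Ccl27a, a skin chemokine that binds CCR10; Cxcl16, a membrane-bound ligand of CXCR6 and scavenger receptor of myeloid cells; Ccl5, made by activated T and NK cells; and Ccl19. At an unadjusted p under 0.05, 16 of the 55 were lower and none was higher, where 10.5% of all probe sets were lower. The arrays of the colonies did not overlap, with BALB/cByJ lower, for 16 of the 55, where 11.9% of all probe sets did so. They did not overlap, with BALB/cByJ higher, for 1 of the 55, Ccl12 at 0.36 (adjusted p = 0.431), against 9.76%. The median log2 difference was -0.10 over the 55 probe sets and -0.01 over all probe sets.

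Cxcl1 showed the most marked of these differences by its probe set 1419209_at, and it is a gene that the study itself displays from these arrays, so its direction is not independent evidence. Its values were 0.04, -0.30 and -0.05 in the naïve BALB/cJ mice (replicates 1, 2 and 3) and -0.61, -0.92 and -0.84 in the naïve BALB/cByJ replicates. They were 0.66, 0.29 and 0.41 in immunized BALB/cJ mice and 0.00, 0.09 and 0.00 in immunized BALB/cByJ mice. In each state all BALB/cByJ arrays lay below all BALB/cJ arrays, and in each colony all immunized arrays lay above all naïve arrays. The log2 difference between the naïve colonies was -0.69 (SE 0.117, n = 3 per group, adjusted p = 0.0109 from limma). Between the immunized colonies it was -0.42 (SE 0.117, adjusted p = 0.424) and was not called. Over both states it was -0.55 (SE 0.0827, adjusted p = 0.00542). The other Cxcl1 probe sets, 1441855_x_at and 1457644_s_at, did not show it, with -0.05 (95% confidence interval -0.31 to 0.20) and 0.09 (-0.24 to 0.42) between the naïve colonies. The mean of the 3 Cxcl1 probe sets gave -0.22 (adjusted p = 0.125 at the level of genes), so the call rests on 1 of 3 probe sets.

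The promoters of Cxcl1, of its neighbour Cxcl2 and of Ccl8, the inflammatory ligand with the greatest response, are shown because these genes are switched on by inflammatory signals. Sequences are the 250 bases before the RefSeq transcription start on GRCm38.p6, 5′ to 3′ on the strand of the gene, with matches on either strand to the κB letters, which are GGG, any 2 bases, and TTTCC, in capitals.
Cxcl1, chr5:90890995-90891244, plus strand: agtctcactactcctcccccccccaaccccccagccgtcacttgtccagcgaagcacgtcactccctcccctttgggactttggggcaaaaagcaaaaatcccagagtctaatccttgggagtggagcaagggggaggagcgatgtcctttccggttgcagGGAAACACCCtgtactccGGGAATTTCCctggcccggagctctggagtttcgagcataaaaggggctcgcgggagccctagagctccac
Cxcl2, chr5:90903649-90903898, plus strand: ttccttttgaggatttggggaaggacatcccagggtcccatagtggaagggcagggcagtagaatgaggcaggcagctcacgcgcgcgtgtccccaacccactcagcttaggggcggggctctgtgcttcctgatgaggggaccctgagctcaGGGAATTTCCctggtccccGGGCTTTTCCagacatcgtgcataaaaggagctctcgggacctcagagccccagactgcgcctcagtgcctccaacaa
Ccl8, chr11:82114935-82115184, plus strand: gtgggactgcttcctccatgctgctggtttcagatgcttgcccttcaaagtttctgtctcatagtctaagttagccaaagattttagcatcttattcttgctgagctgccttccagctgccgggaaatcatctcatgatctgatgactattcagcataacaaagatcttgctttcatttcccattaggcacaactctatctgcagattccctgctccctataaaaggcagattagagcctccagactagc
Cxcl1 holds the letters at 89 to 80 bases before the start, on the minus strand, and at 71 to 62 bases on the plus strand. Cxcl2 holds them at 97 to 88 and at 78 to 69 bases, both on the plus strand. In the Ccl8 window these letters were not present. The letters occurred in 1.41% of 32851 mouse promoters and in 5 of the 28 promoters found for members, those of Ccl20, Ccl9, Cxcl1, Cxcl2 and Cxcl3. RefSeq promoter entries were matched for 25 of the 35 genes, and Ccl5 and Cxcl16 had no match. Promoters that share these letters belonged to genes with different values here. Cxcl2, another CXCR2 ligand, was at 0.22, 0.04 and 0.06 in naïve BALB/cJ and -0.18, -0.32 and -0.14 in naïve BALB/cByJ replicates. The arrays did not overlap, but the log2 difference of -0.32 (SE 0.144, adjusted p = 0.247) was not called. Cxcl3, also a CXCR2 ligand, was at 0.03 (95% confidence interval -0.18 to 0.23).

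Cxcl16 was called in naïve mice by 1 of its 2 probe sets, 1449195_s_at. This probe set is annotated with Cxcl16 alone, but its suffix is among those of probe sets that can read several genes. By 1449195_s_at Cxcl16 was at 0.19, 0.20 and 0.04 in naïve BALB/cJ and -0.49, -0.52 and -0.46 in naïve BALB/cByJ replicates. In immunized BALB/cJ mice it was at 0.66, 0.00 and 0.15, and in immunized BALB/cByJ mice at -0.04, 0.00 and -0.01. The naïve groups lay apart with little spread within BALB/cByJ. The log2 difference was -0.63 (SE 0.131, adjusted p = 0.0208) in naïve and -0.29 (SE 0.131, adjusted p = 0.629) in immunized mice. The other probe set, 1418718_at, was at 0.08, 0.15 and 0.10 against -0.51, -0.19 and -0.28, a difference of -0.43 (adjusted p = 0.0553) that missed the threshold in naïve mice. Over both states 6 of the 55 probe sets were called, against 4.62% of all, each lower in BALB/cByJ, against 1.58%. They include both of Cxcl16, at -0.46 (adjusted p = 0.0178) and -0.33 (adjusted p = 0.0401).

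Ccl5 was at 0.32, 0.28 and 0.19 in naïve BALB/cJ and -0.23, -0.02 and -0.52 in naïve BALB/cByJ replicates. In immunized mice it was at 0.05, 0.02 and 0.22 in BALB/cJ and -0.21, -0.06 and -0.18 in BALB/cByJ. In both states the colonies did not overlap, and the spread was widest in naïve BALB/cByJ. The log2 difference was -0.52 (SE 0.113, adjusted p = 0.0249) in naïve and -0.25 (SE 0.113, adjusted p = 0.629) in immunized mice. Over both states it was -0.38 (adjusted p = 0.0202).

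Among the homeostatic ligands, probe sets of Ccl19 and Ccl27a were called. Among their 17 probe sets the arrays of the colonies did not overlap for 9, from 5 of 8 genes: Ccl19, Ccl21a, Ccl27a, Cxcl12 and Cxcl13. All 9 were lower in BALB/cByJ, and the same 9 had an unadjusted p under 0.05. Over all probe sets, 11.9% did not overlap in this direction, 10.5% were lower at an unadjusted p under 0.05, and 1.71% were called lower. The median log2 difference was -0.27 over the 17 homeostatic, -0.10 over the 21 inflammatory and -0.07 over the 17 other probe sets. The remaining homeostatic genes, Ccl25, which directs cells to thymus and gut through CCR9, Ccl28, a mucosal ligand of CCR10, and Cxcl14, lay between -0.09 and 0.20 with overlapping arrays.

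Of the CCR7 ligands, Ccl19 was called and Ccl21 was not. The probe set of Ccl19, which also reads its copies, was at 0.07, 0.17 and 0.21 in naïve BALB/cJ and -0.40, -0.14 and -0.20 in naïve BALB/cByJ replicates. The groups did not overlap, and the log2 difference of -0.40 (SE 0.0921, adjusted p = 0.0326) was called. The probe set shared by the Ccl21 genes was at 0.03, 0.09 and 0.16 against -0.32, -0.13 and -0.30. Its groups did not overlap either, and the difference of -0.34 (SE 0.0929, adjusted p = 0.0566) missed the threshold. In immunized mice the differences were -0.10 (95% confidence interval -0.30 to 0.10) and -0.13 (-0.33 to 0.07).

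Ccl27a had nearly equal values in the naïve BALB/cJ arrays, and it lies on chromosome 4 with Ccl19 and Ccl21a. The probe set 1434962_x_at is annotated with Ccl27a alone, but its suffix is among those of probe sets that can read several genes. By this probe set Ccl27a was at 0.42, 0.43 and 0.43 in naïve BALB/cJ and -0.21, -0.12 and -0.15 in naïve BALB/cByJ replicates. In immunized BALB/cJ mice it was at 0.38, -0.01 and -0.07, and in immunized BALB/cByJ mice at 0.21, -0.03 and 0.01. The naïve groups were far apart and the immunized groups overlapped. The log2 difference was -0.58 (SE 0.110, adjusted p = 0.0142) in naïve and -0.04 (95% confidence interval -0.27 to 0.20) in immunized mice. The 2 probe sets shared with Ccl27b and other copies were lower without overlap as well, at -0.36 (adjusted p = 0.0764) and -0.29 (adjusted p = 0.0559), and were not called.

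Cxcl12 was at 0.37, 0.28 and 0.04 in naïve BALB/cJ and -0.28, -0.14 and -0.40 in naïve BALB/cByJ replicates by 1448823_at. The groups did not overlap, and the log2 difference of -0.50 (SE 0.131) stood just outside the threshold in naïve mice and was called over both states at -0.37 (adjusted p = 0.0401). A second probe set, 1417574_at, was at -0.45 (adjusted p = 0.0936) without overlap, and the third, 1439084_at, at -0.24 (95% confidence interval -0.64 to 0.17) with overlap. Cxcl13 was at 0.10, 0.03 and -0.02 in naïve BALB/cJ and -0.58, -0.17 and -0.22 in naïve BALB/cByJ replicates by 1448859_at. Its groups did not overlap, but the difference of -0.36 (SE 0.142, adjusted p = 0.187) was not called, nor was that of 1417851_at at -0.27 (adjusted p = 0.229).

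**Figure D2:**
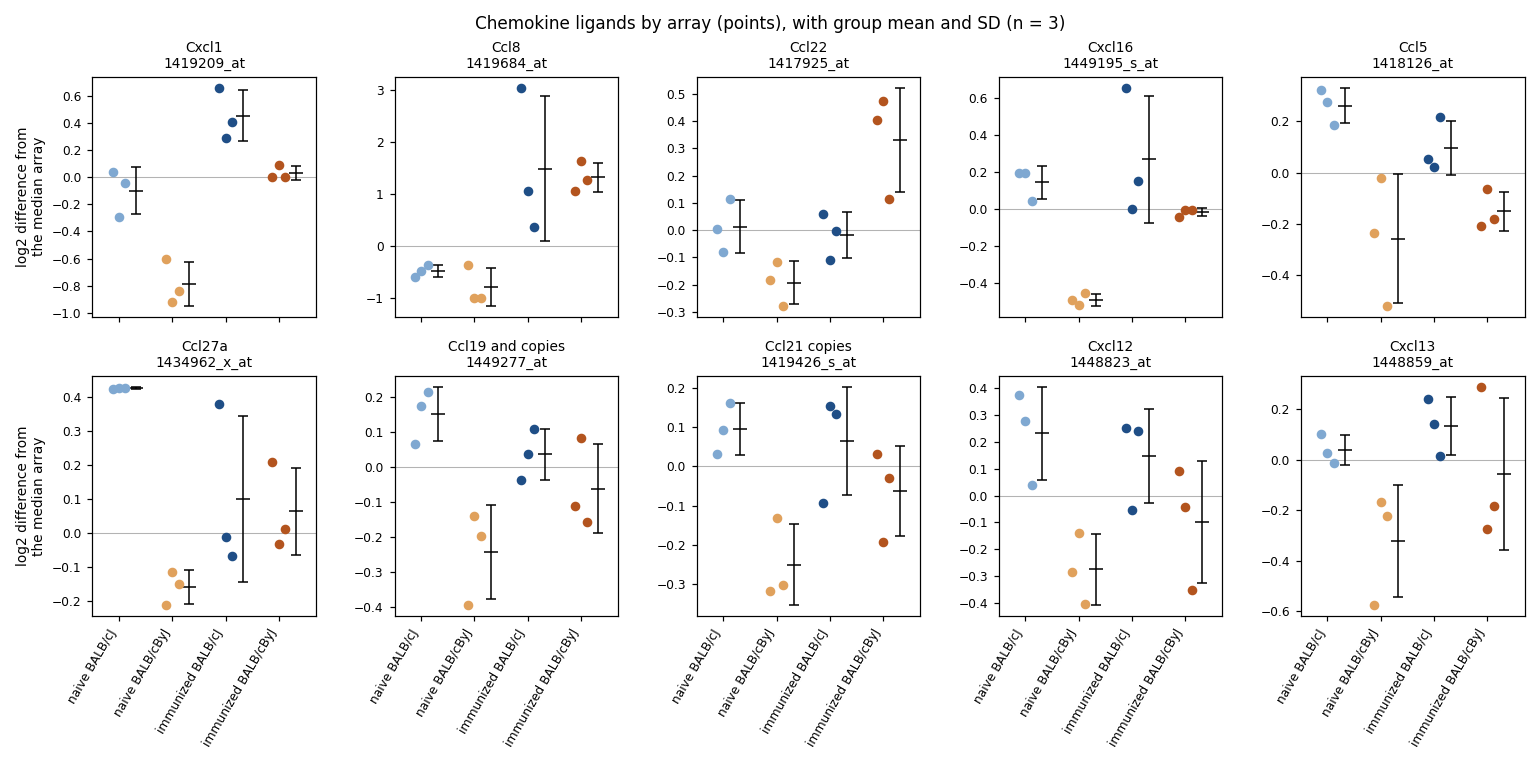
Values on each array for 10 probe sets of the ligands described, as the log2 difference from the median array, with points for the 3 replicates of a group and a bar for the group mean with its SD. Each gene is drawn by its probe set with the lowest p between the naïve colonies, so this choice favours separation there. Some probe sets of Cxcl1 and Cxcl12 that are not drawn overlap. Naïve BALB/cByJ arrays lie below naïve BALB/cJ arrays without overlap in each panel except that of Ccl8. Among immunized BALB/cJ mice Ccl8 spans 0.36 to 3.03.

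The calls between the naïve colonies depended on few arrays. Of the 55 probe sets, 0 were called without naïve BALB/cJ replicate 1 or naïve BALB/cByJ replicate 3, and 1, Cxcl1, without naïve BALB/cJ replicate 2. The share called among all probe sets fell with them, from 4.39% to 0.515%, 0.588% and 0.357%. The differences of the 5 called probe sets stayed between -0.78 and -0.32 when any single array was left out. When the mean of the erythroid list entered the model, 0 were called, against 0.0577% of all probe sets. The differences were then -0.69 for Cxcl1, -0.64 for Ccl27a, -0.57 for Cxcl16, -0.41 for Ccl19 and -0.31 for Ccl5. Leaving out the 4 arrays in which pigment cell genes were high also gave 0, against 0.0333% of all probe sets, with 1 naïve BALB/cJ array left. The differences were then -0.74, -0.59, -0.53, -0.46 and -0.44 for Cxcl1, Ccl27a, Cxcl16, Ccl19 and Ccl5.

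Some genes of the cells that make homeostatic chemokines were lower as well. Of 22 probe sets of 12 stromal and follicular dendritic cell genes, 2 were lower in naïve BALB/cByJ and none was higher, where 1.71% of all probe sets were lower: Pdgfrb, a receptor of mural cells and fibroblasts, at -0.86 (adjusted p = 0.0403) and Bst1, an ectoenzyme of stromal cells, at -0.59 (adjusted p = 0.0109). The median of this list was 0.07, 0.12 and 0.05 in naïve BALB/cJ and -0.17, -0.31 and -0.34 in naïve BALB/cByJ replicates. Of 12 probe sets of 9 endothelial genes, 3 were lower and none was higher, with a list median of -0.29: Tek, Stab2 and Cdh5, at -0.60, -0.50 and -0.42. In the lymphotoxin pathway, which drives expression of Ccl19, Ccl21 and Cxcl13 in lymphoid stroma, 2 of 17 probe sets were lower: Tnfrsf1a, a TNF receptor, at -0.34 (adjusted p = 0.0207), and Relb, a subunit of NF-κB, at -0.35 (adjusted p = 0.0157). Erythroid genes moved the other way, with 14 of 23 probe sets called higher in naïve BALB/cByJ, where 2.68% of all probe sets were. The median difference of this list was 1.47. The part of these lists in the differences of the ligands was not tested beyond the covariate given above.

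Cxcr3 and Xcr1 were the receptors called between the naïve colonies. Of 26 probe sets of 16 measured chemokine receptors, 2 were called lower in BALB/cByJ, where 1.71% of all probe sets were, and none was called higher. Cxcr3, the receptor of Cxcl9, Cxcl10 and Cxcl11 on effector T and NK cells, was at 0.08, 0.19 and 0.12 in naïve BALB/cJ and -0.12, -0.31 and -0.35 in naïve BALB/cByJ, a difference of -0.39 (SE 0.0806, adjusted p = 0.0210). Xcr1, the receptor of Xcl1 on cross-presenting dendritic cells, was at 0.25, 0.36 and 0.18 against -0.59, -0.01 and -0.74, a difference of -0.71 (SE 0.179, adjusted p = 0.0448). Both receptors lay lower in BALB/cByJ without overlap. Their ligands did not pass the test: Xcl1 was at -0.03 (95% confidence interval -0.27 to 0.22), and Cxcl9, an interferon-γ-induced ligand, at -0.53 (SE 0.215, adjusted p = 0.201) with overlapping arrays. No receptor of the homeostatic ligands was called. Cxcr5 was at -0.30, Ccr10 at -0.25, Ccr7 at -0.14, Cxcr4 at 0.23 (95% confidence interval -0.38 to 0.83) and the 5 probe sets of Ccr9 between -0.04 and 0.27. Atypical receptors bind chemokines without signalling through G proteins. Of 9 probe sets of 5 such receptors, 1 was called higher, where 2.68% of all probe sets were, and none was called lower. It read Ackr1, at -1.16, -1.51 and -0.12 in naïve BALB/cJ and 0.09, 0.57 and 0.88 in naïve BALB/cByJ. The difference was 1.44 (SE 0.371, adjusted p = 0.0485). Ackr1 binds Cxcl1 and Ccl5 among others and is carried by red cells and venules, and its lowest values fell in the same arrays as those of the erythroid list.

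In immunized mice no ligand separated the colonies by the test of all genes. Of the 55 probe sets, 0 were called by limma, against 0.12% of all probe sets, and 8 had an unadjusted p under 0.05, against 7.92%. Of these 8, 7 were lower and 1 was higher in BALB/cByJ, and none was homeostatic. The difference lay below 0 for 19 of the 21 inflammatory probe sets, where 52.2% of all probe sets did so. The lower ones read Cxcl1, Ccl3, Cxcl10, Ccl9, Ccl7, Ccl5 and Cxcl16, and the higher one Ccl22, which attracts CCR4-bearing T cells to dendritic cells. Without immunized BALB/cJ replicate 1, 4 of the 55 had an unadjusted p under 0.05, and Ccl9 moved from -0.46 to -0.18, Ccl7 from -0.30 to -0.14 and Cxcl16 from -0.29 to -0.09. Cxcl10, a CXCR3 ligand, was at 0.24, 0.35 and 0.26 in immunized BALB/cJ and -0.32, -0.23 and -0.09 in immunized BALB/cByJ, a difference of -0.49 (SE 0.177, adjusted p = 0.549). Its groups did not overlap, and the difference was -0.52 without that array.

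With immunization, Cxcl1 rose in BALB/cByJ mice, Ccl8 lay higher in every immunized array of both colonies without being called, and the homeostatic ligands were not called. In BALB/cByJ 1 of the 55 probe sets was called, against 0.0511% of all probe sets, and 6 were higher at an unadjusted p under 0.05, against 4.63%: Cxcl1, Ccl8, Cxcl5, Ccl22 and both of Cxcl16. In BALB/cJ 0 were called by limma, against 0% of all probe sets, and 11 had an unadjusted p under 0.05, against 9.19%. All immunized BALB/cJ arrays lay below the naïve ones for 3 probe sets, those of Ccl27a, where 9.51% of all probe sets did so. Over both colonies 1 was called, against 0.0466%. These comparisons share their groups with those between the colonies. Cxcl1 was higher by 0.82 (SE 0.117, adjusted p = 0.0416) in BALB/cByJ, by 0.55 (SE 0.117, adjusted p = 0.323) in BALB/cJ and by 0.68 (adjusted p = 0.0115) over both. The responses differed by 0.26 (95% confidence interval -0.10 to 0.62). The call in BALB/cByJ was lost when any of 8 arrays was left out, with differences between 0.75 and 0.83 and adjusted p values between 0.0550 and 0.164. These were naïve BALB/cJ replicates 1 and 3, naïve BALB/cByJ replicates 2 and 3, immunized BALB/cJ replicate 3 and the 3 immunized BALB/cByJ replicates. At the level of genes the response was 0.26 (adjusted p = 0.353).

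Ccl8, a monocyte attractant also called MCP-2, showed the widest range of all the ligands. It was at -0.59, -0.47 and -0.36 in naïve BALB/cJ and -0.37, -0.99 and -1.0 in naïve BALB/cByJ replicates. After immunization it was at 3.03, 1.06 and 0.36 in BALB/cJ and 1.06, 1.62 and 1.26 in BALB/cByJ. All immunized arrays lay above all naïve arrays, and the immunized BALB/cJ arrays were spread over a range of more than 2 units. The response was 1.96 (SE 0.483, adjusted p = 0.353) in BALB/cJ, 2.10 (SE 0.483, adjusted p = 0.284) in BALB/cByJ and 2.03 (SE 0.341, adjusted p = 0.0738) over both, and none was called. Over both colonies the response stayed uncalled in 17 of 24 alternative settings. It was called with quantile normalization, array weights and a covariate for the sample-number run, among others. Among the 4 groups Ccl8 passed the F-test (adjusted p = 0.0423), as did Cxcl1 (0.00134) and Cxcl16 by 1449195_s_at (0.0368), 3 of the 55 probe sets against 1.77% of all. The response in BALB/cJ was 1.18 (SE 0.235, adjusted p = 0.230) without immunized BALB/cJ replicate 1, where the spread shared by all groups became smaller. Ccl8 was then called in BALB/cByJ at 2.10 (adjusted p = 0.00287) and over both colonies at 1.64 (adjusted p = 0.00373). Between the immunized colonies its difference turned from -0.17 to 0.61 without that array, with adjusted p values of 0.952 and 0.662.

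Further ligands were highest in immunized BALB/cJ replicate 1. In BALB/cJ, 6 inflammatory probe sets had all immunized arrays above all naïve arrays, 28.6% of 21, where 7.53% of all probe sets did so. In BALB/cByJ 4 did, 19% of 21, against 6.91%. Ccl9, a CCR1 ligand of myeloid cells, was at 0.02, -0.33 and -0.02 in naïve BALB/cJ and 1.17, 0.43 and 0.21 in immunized BALB/cJ by 1448898_at. Its groups did not overlap, and the difference of 0.71 (SE 0.202, adjusted p = 0.368) became 0.43 (adjusted p = 0.444) without immunized BALB/cJ replicate 1. The CCR2 ligands Ccl2, Ccl7 and Ccl12, which bring monocytes out of the bone marrow, were at 0.66, 0.64 and 0.87 in that array and between 0.04 and 0.26 in the other immunized BALB/cJ arrays. The eotaxin Ccl11 was at 0.82, 0.04 and 0.07 in the same 3 arrays. In this array the median was 0.35 for stromal, 0.36 for adipose and 1.26 for pigment cell genes, and the part of these tissues was not tested. It was also the only immunized BALB/cJ array of the earlier run of sample numbers, so array and run cannot be told apart there. Without this array, 5 of the 55 probe sets had an unadjusted p under 0.05 in the BALB/cJ response, in place of 11.

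Some neutrophil genes rose with immunization. Over both colonies 3 of 13 probe sets of this list were called higher, where 0.0466% of all probe sets were called. They read the granule proteins Mpo, Ngp and Camp, and the median difference over the list was 1.30. In the response of either colony alone, 0 of the 13 were called. The list median was 0.13, -0.84 and -0.24 in naïve BALB/cJ, -0.81, -1.0 and -1.0 in naïve BALB/cByJ, 0.52, 0.84 and 0.77 in immunized BALB/cJ and -0.12, 0.55 and 1.23 in immunized BALB/cByJ. The list median was below -0.80 in all naïve BALB/cByJ arrays, where Cxcl1 was lowest, and also in naïve BALB/cJ replicate 2. The highest list median fell in an immunized BALB/cByJ array and the highest Cxcl1 value in an immunized BALB/cJ array. The part of neutrophils in the values of Cxcl1 was not tested. Cxcl5, another CXCR2 ligand, was at 0.51 (adjusted p = 0.446) in BALB/cJ and 0.55 (adjusted p = 0.478) in BALB/cByJ and was not called. Saa3, an acute-phase protein induced through NF-κB, rose in BALB/cByJ by 2.77 (adjusted p = 0.0490 from limma). It was called as 1 of 29 probe sets of its list, against 0.0511% of all probe sets.

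Ccl22 lay highest in the immunized BALB/cByJ mice, and it was not called in any comparison of the model with 4 group means. It was at 0.00, -0.08 and 0.11 in naïve BALB/cJ, -0.18, -0.12 and -0.28 in naïve BALB/cByJ, 0.06, -0.11 and 0.00 in immunized BALB/cJ and 0.40, 0.47 and 0.12 in immunized BALB/cByJ. The immunized BALB/cByJ arrays were above all 9 others, but replicate 3, at 0.115, was nearly level with naïve BALB/cJ replicate 3, at 0.114. The response was 0.52 (SE 0.0997, adjusted p = 0.155) in BALB/cByJ and -0.03 (95% confidence interval -0.25 to 0.19) in BALB/cJ. With a covariate for the 2 runs of sample numbers among immunized arrays, the BALB/cByJ response was 0.60 and called (adjusted p = 0.0380). The responses differed by 0.55 (SE 0.141, adjusted p = 0.489). Of the 55 probe sets, 0 were called in the difference of responses by limma, against 0% of all probe sets, and 4 had an unadjusted p under 0.05, against 7.59%: Ccl22, 2 of Ccl27a and that of Ccl19. Ccl17, the other CCR4 ligand, was at 0.04 (95% confidence interval -0.23 to 0.32) in BALB/cByJ. Cd83, a marker of activated dendritic cells, rose in BALB/cByJ by 0.63 (adjusted p = 0.0490 from limma). It was called as 1 of 13 probe sets of the dendritic cell list, against 0.0511% of all probe sets, and the list median was 0.09.

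**Figure D3:**
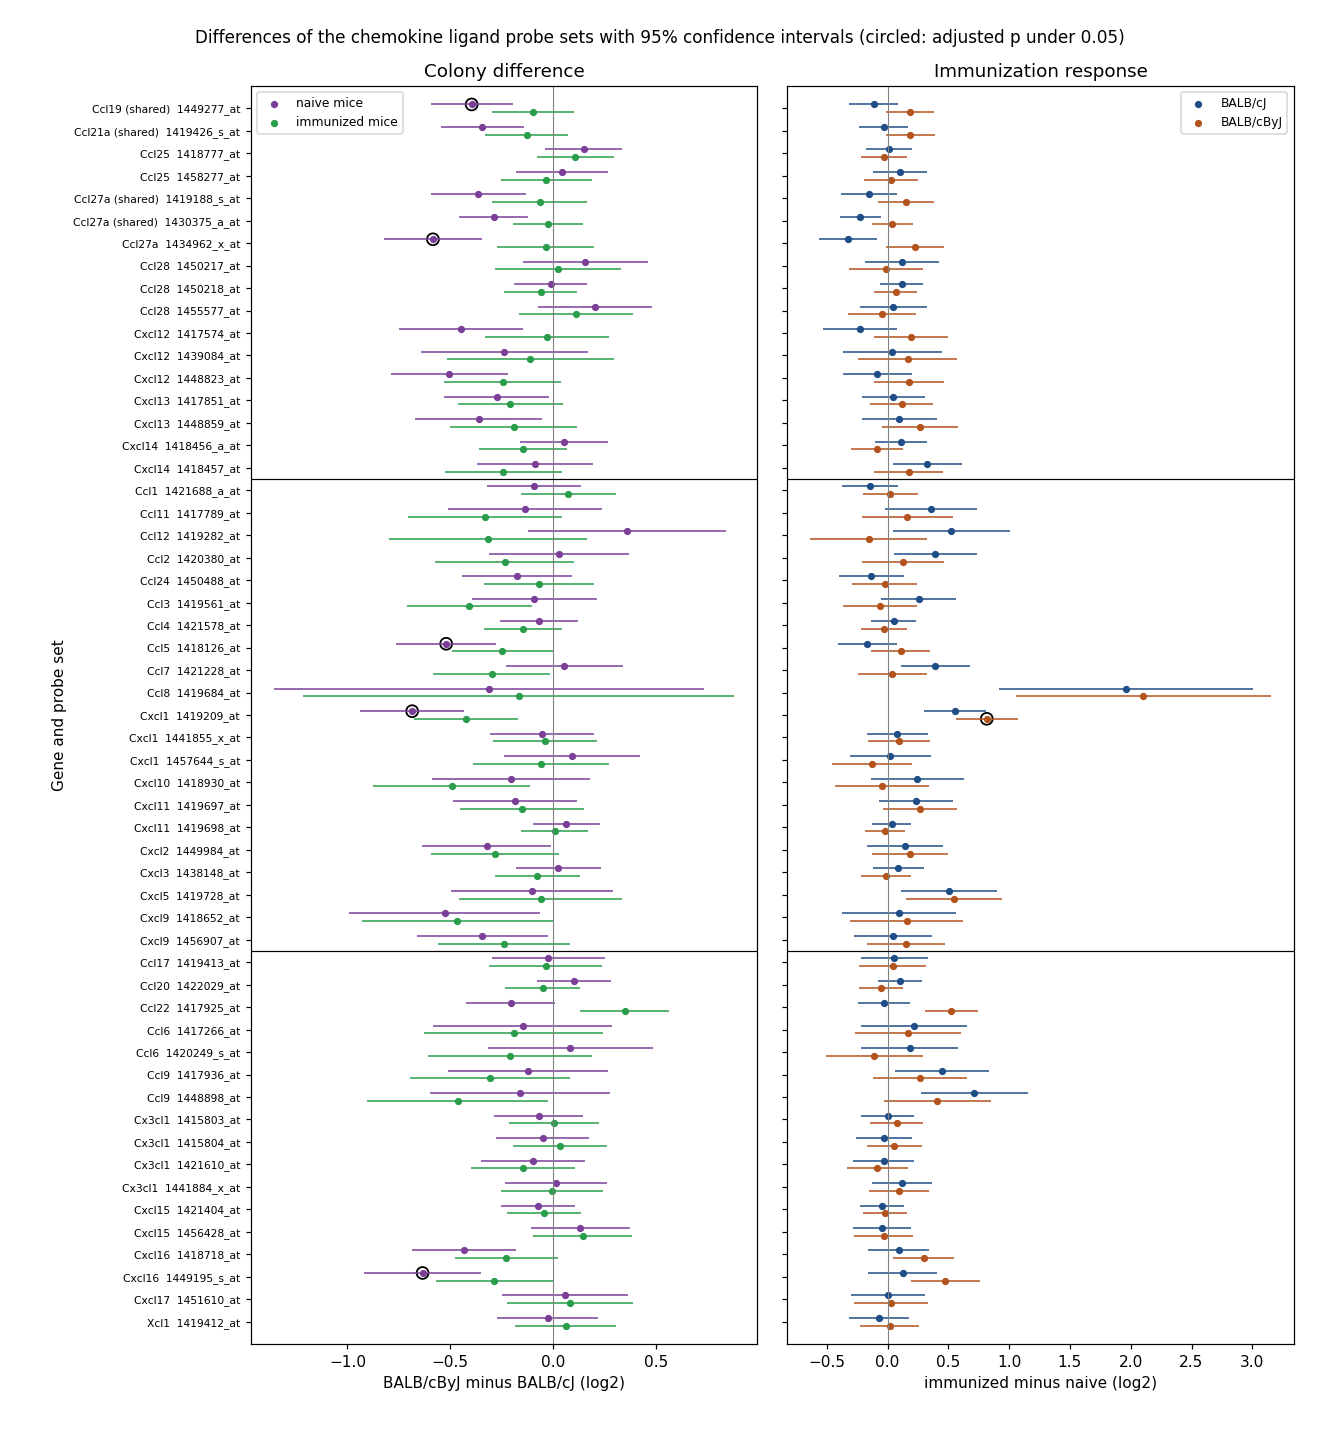
Log2 differences of the 55 probe sets with 95% confidence intervals, between the colonies in naïve and immunized mice (left) and between immunized and naïve mice of each colony (right), with circles around those called. The 5 circles on the left all lie below 0 in naïve mice, and the 1 circle on the right is Cxcl1 in BALB/cByJ.

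**Figure D4:**
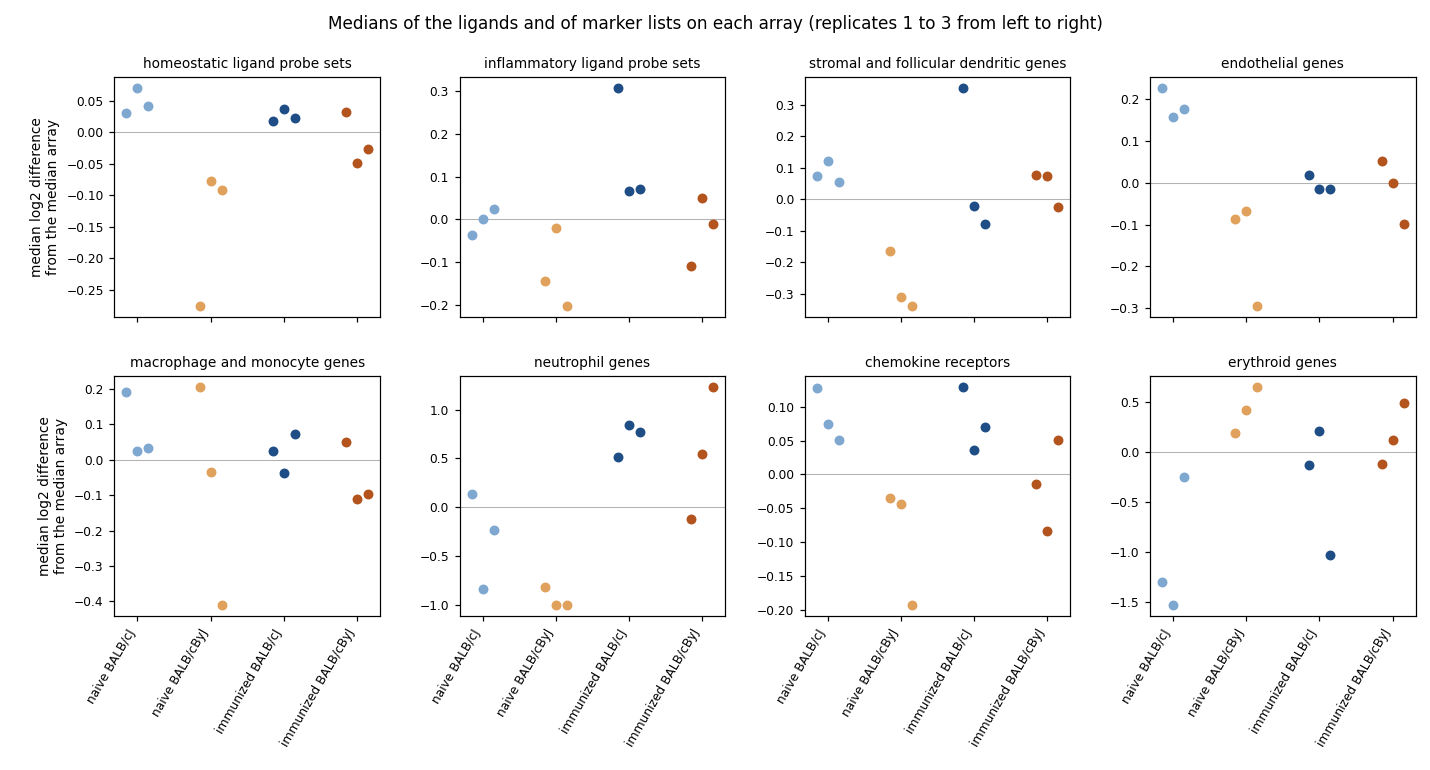
Median log2 difference from the median array on each of the 12 arrays for homeostatic and inflammatory ligands and for marker gene lists, 3 points per group. Homeostatic ligands and stromal genes are lowest in the 3 naïve BALB/cByJ arrays, and erythroid genes are lowest in naïve BALB/cJ replicates 1 and 2.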

How the data were processed

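RNA of 12 spleens was hybridized to Mouse Genome 430 2.0 arrays. The deposited values are log2 expression values: the authors summarized the arrays by RMA with quantile normalization in GeneSpring GX 10.0 and subtracted the median of each probe set over the 12 arrays. Low signals cannot be filtered on such values, and quantile normalization hides any change common to most genes. 0 columns belonged to other samples, and no arrays were identical. Probe sets were named from the annotation of the platform: 34945 had 1 gene, 932 several and 9160 none. 64 control probe sets were left out.

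From these values, a model with 4 group means was fitted over all 12 arrays with limma 3.58.1 in R 4.3.3, with moderated statistics and Benjamini-Hochberg adjustment over 45037 probe sets. It gave the colony difference in each state, the response to immunization in each colony, the difference of responses, the means of both and an F-test. All tests are two-sided. Each array is a separate animal by the labels, and 3 arrays per group limit the precision. The fit was tested on simulated data with independent errors. Those data held no differences shared by many genes of an array, so the test does not cover them. Python 3.11.15 served for motif matches (pandas 2.3.3) and for figures (matplotlib 3.10.9). Values on every array are given for ligands called in any comparison, for those at an unadjusted p under 0.01 without overlap, for Cxcl1, and for Ccl19, Ccl21a, Cxcl12 and Cxcl13. Values of other ligands, such as Cxcl2, Cxcl10, Ccl11 and the CCR2 ligands, are given in addition and were chosen after they were seen. The members and lists were chosen with earlier results of these data known. Alternatives changed the normalization, the probe sets, the arrays and the model. Protein sequences were not used here.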

Additional observations from a re-analysis of the deposited data

Results flagged for a closer look

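Ccl27a by 1434962_x_at had its immunized arrays on opposite sides of the naïve arrays in the 2 colonies. Neither response was called, and the suffix of this probe set marks that it can read several genes. In BALB/cJ the immunized arrays, at 0.38, -0.01 and -0.07, all lay below the naïve arrays, at 0.42, 0.43 and 0.43. In BALB/cByJ the immunized arrays, at 0.21, -0.03 and 0.01, all lay above the naïve arrays, at -0.21, -0.12 and -0.15. The log2 responses were -0.33 (SE 0.110, adjusted p = 0.419) and 0.22 (SE 0.110, adjusted p = 0.618). Their difference was 0.55 (SE 0.155, unadjusted p = 0.00386, adjusted p = 0.505 from limma) and was not called. The 2 probe sets shared with copies lay lower without overlap in immunized BALB/cJ, at -0.15 and -0.23, and overlapped in BALB/cByJ, at 0.15 and 0.04. Both responses share their naïve groups with the colony difference.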

How the results depend on the processing

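The numbers of the 55 probe sets called depended on the settings, and the share called among all probe sets, in parentheses, moved too. Between the naïve colonies, where 5 were called, array weights gave 13 (13.2%) and the mean per gene 3 (7.54%). Leaving out probe sets whose suffix marks that they can read several genes gave 3 (3.89%). It took out the called probe sets of Ccl27a and Cxcl16. The study's one-way analysis of variance, rerun here over 45037 probe sets, more than the paper analyzed, gave 1, Cxcl1 (0.149%). Testing against a fold of 1.2 (0.184%), the erythroid list mean as a covariate (0.0577%), or leaving out the 4 arrays in which pigment cell genes were high (0.0333%) gave 0, and leaving out single arrays 0 to 7 (0.357% to 5.48%). Between the immunized colonies, with 0 called, leaving out the 4 arrays in which pancreatic or heat shock genes were high gave 4 (Ccl12, Ccl6, Ccl8 and Ccl9, 0.313%), the analysis of variance 1 (0.158%), and single arrays 0. That setting leaves 1 immunized BALB/cJ array, replicate 1, and the pigment setting 1 naïve BALB/cJ array, each assumed to vary like the other groups. For the BALB/cJ response, with 0 called, array weights gave 3 (1.45%), the pancreatic and heat shock setting 5 (0.229%), the analysis of variance 1 (0.0622%) and single arrays 0. For the BALB/cByJ response, with 1 called, subtraction of array medians, the fold of 1.2, the erythroid covariate, the pigment setting and the mean per gene gave 0 (0.0133% to 0.0824%), the run covariate and the pancreatic and heat shock setting 2 (0.0711% each), and single arrays 0 to 2 (0.0133% to 0.0777%). When only the arrays of the groups compared were fitted, the 1 called in BALB/cByJ was Ccl8 and not Cxcl1 (0.0133%). The difference of responses had 0 called in every alternative run. Over both states, with 6 called, array weights gave 11 (10.1%), the pancreatic and heat shock setting 10 (1.95%), the mean per gene 3 (7.67%), the fold of 1.2, the erythroid covariate and the pigment setting 0 (0.0844% to 0.142%), and single arrays 1 to 7 (1.38% to 5.79%). For the response over both colonies, with 1 called, quantile normalization, array weights and the run covariate gave 2 (0.0311% to 0.189%), the pancreatic and heat shock setting 7 (0.251%), the fold of 1.2 and the pigment setting 0 (0.00444% and 0%), and single arrays 0 to 2 (0.0133% to 0.0822%). For the F-test, with 3 called, array weights gave 12 (10.8%), the run covariate 5 (1.55%), the erythroid covariate 1 (0.164%), the pigment setting 0 (0.0644%), the pancreatic and heat shock setting 13 (2.62%), the analysis of variance 1 (0.164%), the mean per gene 6 (3.65%), and single arrays 1 to 4 (0.246% to 2.59%). Ccl22 was among the probe sets or genes called in the F-test under array weights, the run covariate, the pancreatic and heat shock setting and the mean per gene, and without immunized BALB/cByJ replicate 3. For the response over both colonies, the 1 called by the mean per gene was Ccl8 and not Cxcl1 (0.176%). The causes were not tested. The 17 ligand differences recomputed one by one kept their direction in every alternative run. They were chosen because they were called or had a low unadjusted p in these same arrays, so a turn was unlikely. Several of them were of the same gene. The Ccl8 difference between the immunized colonies was not among them, and it turned from -0.17 to 0.61 without immunized BALB/cJ replicate 1.

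With the replicate number as a block, the colony difference had 6 called in naïve and 0 in immunized mice, with 0 and 1 in the BALB/cJ and BALB/cByJ responses, 0 in their difference, 6 over both states, 1 in the response over both colonies and 3 in the F-test. Same-numbered arrays correlated between -0.264 and 0.368. With 3 arrays per group, such values cannot tell whether the numbers pair the animals. A filter on dim probe sets was not run, because the values hold no signal level.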

Other observations

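A few genes of other lists were called between the naïve colonies, where 4.39% of all probe sets were called. They were 3 of 13 probe sets of dendritic cells, 2 of 12 of B cells (Fcer2a and Fcmr), 1 of 29 of the NF-κB and innate response, 1 of 19 of the interferon-γ response, 1 of 14 of NK cells, and 0 by limma of 14 of T cells, 23 of macrophages and monocytes and 13 of neutrophils. The dendritic cell genes Cd207 (langerin) and Cd83 were lower in naïve BALB/cByJ, and Siglech, a marker of plasmacytoid dendritic cells, was higher, at log2 differences of -1.01, -0.55 and 0.52. Cd207 was lower in immunized BALB/cByJ too, at -1.02. The 1 called of the NF-κB and innate response, the inflammatory cytokine Il1b, was lower in naïve BALB/cByJ at -0.71 (adjusted p = 0.0217 from limma). The 1 called of the interferon-γ response, Ciita, the regulator of class II genes, was lower at -0.36 (adjusted p = 0.0213 from limma). A single call in a list of this size says little about the list. Prf1, the perforin of NK and cytotoxic T cells, was lower as well. The platelet chemokines Pf4 and Ppbp, left out of the ligands, were not called by limma.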
